A study of Mus musculus with 6 samples.

Results

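The c-Myc peaks of the mouse lung cancer cell line PB115 were the 7830 regions that the authors called in the PB115 c-Myc ChIP library against the input library of the same line, out of 26525 peaks in the 3 lists of the series. Every peak of that list was used. The series mapped c-Myc by chromatin immunoprecipitation and sequencing (ChIP-seq) in 3 lung cancer lines (PB115, PB119 and PB120), each sampled as a c-Myc ChIP and as an input. The PB115 ChIP used a c-MYC antibody on chromatin fixed with 1% formaldehyde for 10 minutes, and the input was chromatin of the same line without antibody. The labels used here give neither genotype, strain nor treatment of the line, and a peak list holds no expression value, so the named cell type was not checked against markers. The ChIP held 41399176 tags, of which 40494386 were left after repeated positions were removed, and the input held 28833757 tags, of which 28380432 were left. With 1 library of each kind there was no replicate, so no value below has an error between replicates and no difference was tested.

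c-Myc is a transcription factor with a leucine zipper, through which it pairs with Max, and it touches DNA as that dimer. The dimer prefers the palindromic E-box CACGTG and tolerates variants such as CACGCG, and it is found mostly at active promoters in CpG islands. In growing cells c-Myc is known for raising the output of genes for ribosomes, nucleotide synthesis and metabolism, and proteins such as Mnt and the Mxd family compete for the same Max partner and the same sites.

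To show the DNA under the summits, 81 bases centred on the summit (40 on each side) are printed for the 12 strongest peaks whose window lay inside a RefSeq promoter of a protein-coding gene (GRCm38.p6, 250 bases before to 50 after the start). Strength here is the deposited fold, which ran from 39.3 down to 31.1 over these peaks, and the set was chosen after its values were seen. Each sequence runs 5′ to 3′ on the strand of the named gene. Capitals mark the canonical motif CACGTG, or the variant CACGCG on either strand (it reads CGCGTG on the other).
Cstf1 (chr2:172370885-172370965, plus strand): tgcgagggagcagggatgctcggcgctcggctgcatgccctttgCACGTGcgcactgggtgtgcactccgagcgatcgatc
Eif3b (chr5:140419238-140419318, plus strand): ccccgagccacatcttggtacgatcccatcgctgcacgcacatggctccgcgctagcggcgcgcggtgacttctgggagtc
Tbrg4 (chr11:6626020-6626100, minus strand): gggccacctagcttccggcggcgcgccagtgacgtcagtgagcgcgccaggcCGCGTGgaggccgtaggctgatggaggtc
Pigw (chr11:84880240-84880320, minus strand): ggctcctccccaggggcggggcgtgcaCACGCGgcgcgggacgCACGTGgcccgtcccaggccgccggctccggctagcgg
Brca2 (chr5:150522497-150522577, plus strand): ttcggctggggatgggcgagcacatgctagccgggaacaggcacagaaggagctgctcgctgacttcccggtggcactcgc
Rpl10a (chr17:28328454-28328534, plus strand): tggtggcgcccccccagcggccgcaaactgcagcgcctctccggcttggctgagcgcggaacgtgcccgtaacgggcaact
Mrm1 (chr11:84819522-84819602, minus strand): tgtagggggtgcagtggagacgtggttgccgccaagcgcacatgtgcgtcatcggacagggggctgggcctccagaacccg
Dhrs13 (chr11:78032198-78032278, plus strand): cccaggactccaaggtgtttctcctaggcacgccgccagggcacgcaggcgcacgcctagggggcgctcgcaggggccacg
G6pc3 (chr11:102189571-102189651, plus strand): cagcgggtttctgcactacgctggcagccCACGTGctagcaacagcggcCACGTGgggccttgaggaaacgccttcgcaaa
Calm3 (chr7:16924139-16924219, minus strand): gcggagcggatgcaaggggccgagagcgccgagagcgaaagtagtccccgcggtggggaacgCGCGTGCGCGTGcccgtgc
Ldha (chr7:46845748-46845828, plus strand): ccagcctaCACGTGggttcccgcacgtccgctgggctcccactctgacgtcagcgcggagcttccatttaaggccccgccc
Atpaf2 (chr11:60417199-60417279, minus strand): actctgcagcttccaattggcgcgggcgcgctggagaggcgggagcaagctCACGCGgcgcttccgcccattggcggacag
Of these 12 windows, 4 held CACGTG, 4 held CACGCG and 7 held either. Over 1964 summit windows in promoters, CACGTG was in 12.2%, CACGCG in 18.2% and CATGTG in 4.38%. The windows at G6pc3, the ubiquitous glucose-6-phosphatase, and at Calm3, a calmodulin gene, each held a motif more than once. At Pigw, an enzyme of GPI anchor synthesis, both motifs lay in the same window. The other 5 windows, those at Eif3b, Brca2, Rpl10a, Mrm1 and Dhrs13, held neither, which says only that these letters are absent from those 81 bases. Read on both strands, CATGTG, a motif treated below and not capitalised here, was in the windows at Eif3b, Brca2 and Mrm1.

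Promoters with a c-Myc summit held E-boxes more often than promoters without one. The motifs were searched on both strands in 21262 RefSeq promoters of 300 bases. CACGTG was in 19.7% (Wilson 95% interval 18.2 to 21.1) of the 2875 promoters with a summit inside them, and in 14.7% of the 5276 with a summit within 1000 bp of the start (24.8% of all promoters), against 5.57% of the 15986 promoters without a summit in that distance and 7.84% of all. CACGCG was in 32.5% (30.8 to 34.2) of the promoters with a summit inside, against 7.54% of those without and 12.1% of all. Either motif was in 47.1% of the promoters with a summit inside, against 12.3% of those without and 18.6% of all. Intervals here and below cover counting error over promoters, peaks or genes only.

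Other 6-base motifs did not show the same split. CATGTG was in 8.70% of the promoters with a summit inside, against 12.9% of those without, and CAGCTG, the E-box of many tissue-specific factors, was in 12.5% against 16.6%. ACCGGT, a palindrome of the same bases as CACGTG that also holds a CpG, was in 3.51% against 2.36%, and GTGCAC, the same bases without a CpG, was in 7.03% against 5.21%. These motifs can overlap one another. Base composition moved with these shares: the median observed over expected CpG ratio was 0.849 in promoters with a summit within 1000 bp and 0.383 in those without, with median GC contents of 63.7% and 53.3%. Within the quintile of promoters richest in CpG, 56.1% had a summit, and CACGTG was in 15.8% of those with a summit against 8.73% of those without. In the same quintile CACGCG was in 35.0% of promoters with a summit against 26.5% of those without. Both differences were present within that quintile and were smaller there than over all promoters.

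The share of promoters with an E-box was highest among the strongest peaks. When the 2875 promoters with a summit inside were split into 5 groups of 575 by fold, CACGTG was in 13.9%, 15.3%, 13.6%, 20.2% and 35.3% of them, lowest fold first. CACGCG was in 22.1%, 27.1%, 34.8%, 36.2% and 42.3%, and either was in 33.0% of the weakest and 67.8% of the strongest group. CACGTG therefore stayed between 13.6% and 15.3% over the 3 weaker groups and was higher in the upper 2, whereas CACGCG was higher in each group than in the one before it. ACCGGT kept between 2.43% and 4.00% across the groups. The nearest CACGTG lay a median of 25.5 bp from the summit in the 565 promoters that held one, and 49.9% of them had it within 25 bp. For CACGCG the median was 32.5 bp over 934 promoters and for CATGTG 45.5 bp over 250. GTGCAC lay farther away, at a median of 65 bp, as did CAGCTG at 83 bp and ACCGGT at 94.5 bp. CATGTG was thus less frequent in promoters with a summit than in the others, yet lay closer to the summit than those palindromes where present.

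**Figure D1:**
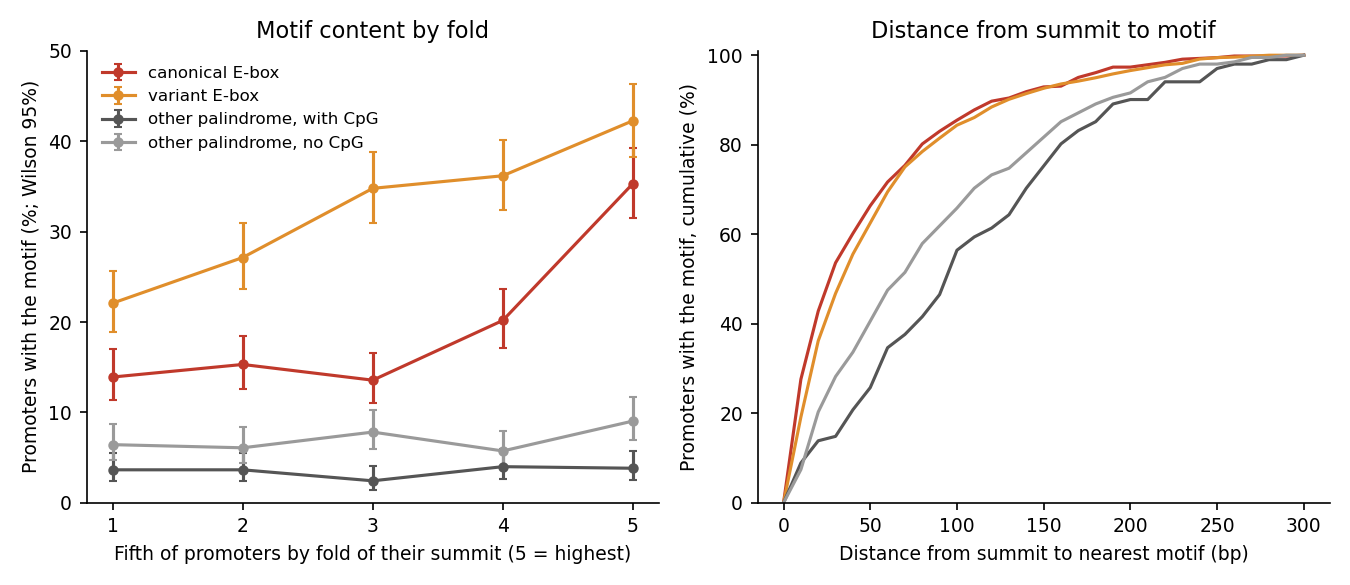
Left, share of promoters holding each motif (%, bars are Wilson 95% intervals) for 5 groups of 575 promoters ordered by the deposited fold of the summit inside them. Right, cumulative share of promoters (%) against the distance in bp from the summit to the nearest copy of the motif. The canonical E-box CACGTG climbs to 35.3% in the strongest group, while GTGCAC and ACCGGT stay at 9.04% or less, and of the 4 motifs plotted both E-boxes lie nearest the summits.

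The peaks were short and, in nearly all cases, stood on a low input background. Peak length had a median of 270 bp (quartiles 201 and 395) and ran from 153 bp, the modelled fragment length, to 1875 bp; 155 peaks had the minimum length and 82 reached 1000 bp. The deposited coverage at the summit (pileup) corresponded to whole ChIP fragments, with a median of 49 (quartiles 40 and 65, range 24 to 294). The input background that the caller used at the same summits, recovered from pileup and fold and put on the ChIP's depth, had a median of 3.65 fragments (quartiles 3.10 and 4.28, range 2.29 to 147). The deposited fold is the ratio of the 2 after 1 is added to each at the input's depth, so it is smaller than their plain quotient. Its median was 9.59 (quartiles 7.84 and 12.6, range 1.93 to 46.3), with 420 peaks at 20 or more, 62 at 30 or more and 105 below 5.

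Strong peaks differed from weak ones more in ChIP fragments than in input background. Relative to the genome-wide input level, the background at summits had a median of 1.59, lay under 2 at 6336 peaks (80.9%), and exceeded 3 at 501 (6.40%) and 5 at 19. In 5 groups of peaks by fold, weakest first, the median ChIP fragments were 39, 40, 46, 57 and 84, and the median relative background was 1.90, 1.56, 1.52, 1.49 and 1.49. Median length over the same groups was 201.5, 212, 247, 313 and 458 bp. Across the 7830 peaks Spearman's rho was 0.62 between length and fragments, 0.77 between fragments and fold and −0.33 between background and fold, all from the same pair of libraries and partly built from the same counts. The background stood at the genome-wide level, 2.29 fragments and the lowest value of the list, at 114 peaks. Among them were peaks near Adcy3, an adenylate cyclase, Npepl1, a peptidase, and Cux2, a homeobox factor, each with 29 ChIP fragments and a fold of 8.18.

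The highest ChIP coverage of the list was at a ribosomal RNA repeat copy, where the input was as exceptional. Between positions 39843120 and 39848815 of chromosome 17, beside the annotated 18S ribosomal RNA pseudogene Rn18s-rs5 and the long noncoding RNA AY036118, 5 peaks covered 3781 bp. They held 294, 290, 273, 164 and 264 ChIP fragments against 147, 106, 94.2, 84.2 and 77.0 input fragments at the ChIP's depth. Their folds were 1.99, 2.72, 2.87, 1.93 and 3.38, and their backgrounds 64.0, 46.0, 41.04, 36.7 and 33.6 times the genome-wide level. No other peak exceeded 14.3 times that level, a value reached on chromosome 3 at 5860553 to 5860834 and on chromosome 11 inside the long noncoding RNA Gm36876. A peak inside Cdk8, the kinase of the Mediator complex, came next with 73 ChIP fragments against 22.8 input fragments and a fold of 3.07. Whether other copies of the repeat contributed to these values was not tested.

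**Figure D2:**
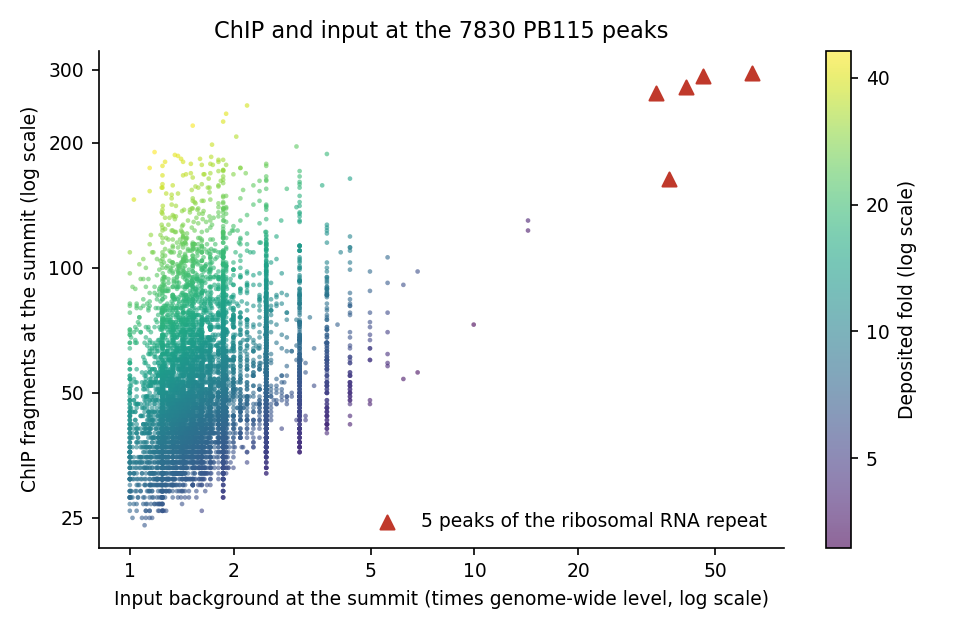
ChIP fragments at the summit (log scale) against the recovered input background as a multiple of the genome-wide level (log scale) for the 7830 PB115 peaks, coloured by deposited fold. The 5 peaks of the ribosomal RNA repeat (red triangles) stand at backgrounds of 33.6 to 64.0 with folds of 3.38 or less, while most peaks lie under a background of 2.

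Peaks crowded at gene starts. For 17491 of 21883 protein-coding genes the RefSeq table gave the start, and for the other 4392 either annotated end was used. On that basis 5439 summits, 69.5% (Wilson 95% interval 68.4 to 70.5), lay within 1000 bp of a coding start or such an end. A further 1354 (17.3%) lay farther off but inside a coding gene, and 1037 (13.2%) lay outside coding genes. Median fold was 9.89 near genes' starts, 9.01 inside genes and 9.05 outside them, and median ChIP fragments were 49 in all 3 places. The background differed, with medians of 1.53 near starts, 1.81 inside and 1.87 outside, and so did length, with medians of 291, 233 and 240 bp. The share near a start was 59.3% in the weakest quintile by fold and 78.3% in the strongest.

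Measured from known starts, the 4628 summits in that distance had a median signed position of −5 bp (quartiles −113 and 121), where negative means upstream. Of these, 46.1% were within 100 bp, 69.4% within 250 bp and 87.5% within 500 bp, and 51.2% were upstream. The median distance was 125.5, 129, 114, 108 and 101.5 bp across quintiles of rising fold. Gene ends lacked such a concentration: 4148 of the 17491 genes of known strand (23.7%) had a summit within 1000 bp of the 5′ boundary and 286 (1.64%) within 1000 bp of the 3′ boundary. Of the 296 peaks at a 3′ boundary, 223 were also near a start or an end of a gene with no given start, which left 73, with a median fold of 9.52. Starts of 2 or more genes shared 599 summits (12.9%), 581 of them with genes on both strands. Fold had a median of 9.94 at those 581 summits and 9.89 at summits near 1 gene.

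**Figure D3:**
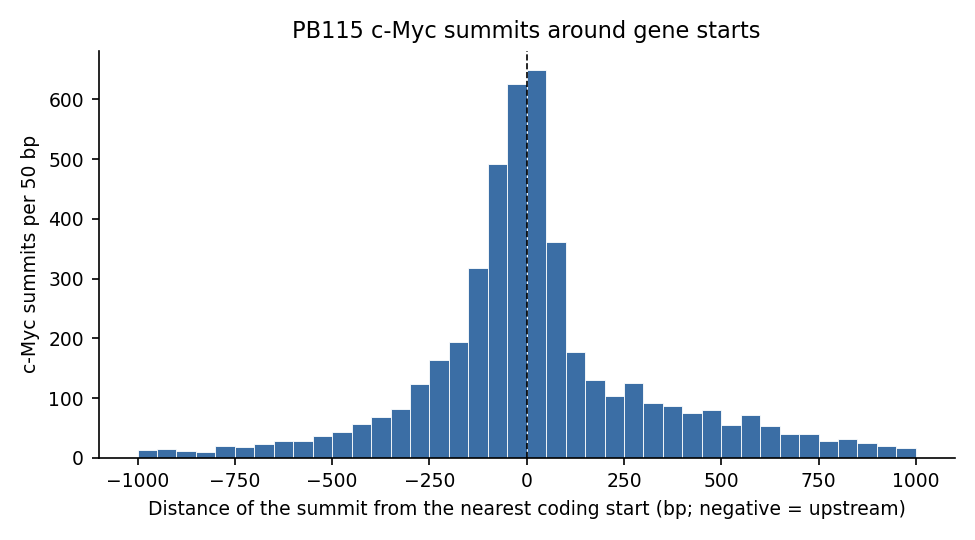
Number of PB115 c-Myc summits in bins of 50 bp by distance from the nearest known protein-coding start (bp, negative upstream, dashed line at the start). The histogram is centred on the start, with a median of −5 bp and 87.5% of the 4628 summits within 500 bp.

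A summit lay within 1000 bp of the start (or of either end, where no start was given) of 5375 of 21883 protein-coding genes, a background of 24.6% against which the gene lists below are read. The highest fold at a called gene had a median of 10.3. It reached 20 at 378 genes, which is 1.73% of coding genes, and 30 at 54. For 1359 called genes (25.3%) the strongest summit was also within 1000 bp of another coding gene, so it cannot be assigned to either.

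Genes of several functions led the list by fold. Klf16, a zinc-finger transcription factor of the Krüppel-like family, had the highest fold, 46.3, at a peak on chromosome 10 from 80577717 to 80578288 (GRCm38, here and below). Its summit had 190 ChIP fragments against 2.71 input fragments at the ChIP's depth and lay 684 bp from an end of the gene, closer (144 bp) to the long noncoding RNA Gm26710. Ppan, needed for the assembly of the large ribosomal subunit, followed at 41.9 with 180 against 2.90 fragments, 127 bp past its start, in a peak on chromosome 9 from 20887760 to 20888829. Ppp1r15b, which directs protein phosphatase 1 to the translation factor eIF2α, stood at 41.6 with 187 against 3.10 fragments on chromosome 1, from 133130814 to 133131525. Mtg1, a GTPase of the mitochondrial ribosome, had 176 against 2.85 fragments and a fold of 41.4. For Gar1, a protein of the particles that pseudouridylate ribosomal RNA, the values were 186 against 3.17 fragments and 40.8. Of these 5 genes, Ppan and Gar1 serve cytosolic ribosomes and Mtg1 those of mitochondria.

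Uspl1, a SUMO protease, had more ChIP fragments than those genes, 225, and also more input, 4.28, for a fold of 39.7 on chromosome 5 from 149184423 to 149184921. The next 2 summits were each shared by a pair of genes. B3galt6, a galactosyltransferase of glycosaminoglycan synthesis, and Sdf4, a calcium-binding protein of the Golgi, shared a summit with 183 against 3.23 fragments and a fold of 39.6. Aurka, the mitotic kinase Aurora A, and Cstf1, a subunit of the factor that cleaves messenger RNA 3′ ends, shared 1 with 167 against 2.85 fragments and a fold of 39.3. It lay 355 bp upstream of Aurka and 78 bp upstream of Cstf1, beside the CACGTG printed above. Mrpl23, a mitochondrial ribosomal protein, had 146 against 2.36 fragments and a fold of 39.0, and Eif3b, a scaffold subunit of the initiation factor eIF3, had 180 against 3.27 and 38.6. Fold and coverage ranked genes differently, since a summit with few input fragments such as that of Mrpl23 reached the same fold with fewer ChIP fragments.

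The functions of the called genes were described with 21 gene lists, of which 19 had a larger share called than the 24.6% of all coding genes. The lists were chosen with earlier results of these data known, so their shares are descriptions. Across quintiles of promoters by CpG ratio, the share with a summit ran from 0.611% in the poorest to 56.1% in the richest. The lists were not matched to other genes for CpG, so a share above 24.6% need not be particular to a function. All 25 cytosolic chaperones and all 32 small-subunit ribosomal proteins were called. At the other end stood the 30 genes of liver, muscle, red cells and sperm, none of which was called.

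**Figure D4:**
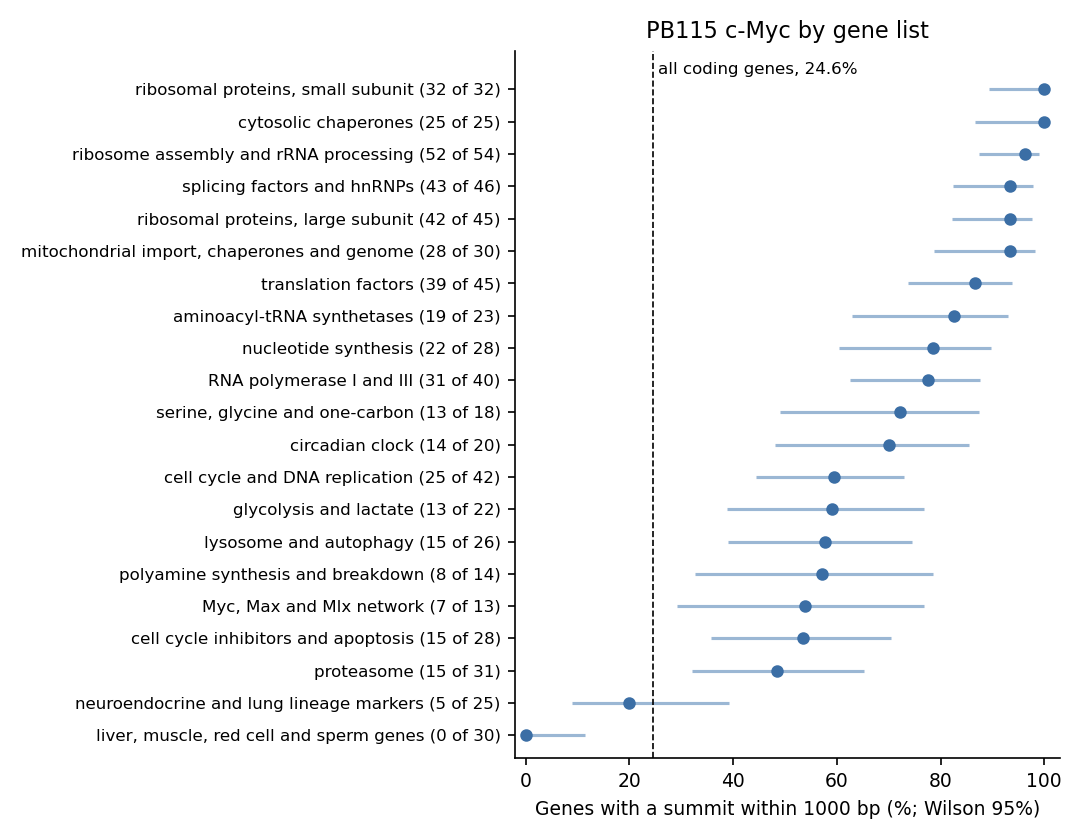
Share of each gene list with a c-Myc summit within 1000 bp (%, points, with Wilson 95% intervals) and, as a dashed line, the 24.6% of all coding genes. Lists for making proteins stand at 77.5% to 100%, the proteasome at 48.4% and lineage markers at 20.0%.

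Genes for assembling ribosomes had the highest median fold of the 20 lists with a called member. Of 54 ribosome assembly and ribosomal RNA processing genes, 52 (96.3%) were called, with a median fold of 16.96 against 10.3 over all called coding genes. A fold of 20 or more was found at 19 of them and 21 were among the 537 strongest called genes, those with a fold of at least 18.4. Behind Ppan and Gar1, Wdr43, a factor of the small-subunit processome, had 159 ChIP fragments against 2.85 input fragments and a fold of 37.5. Nolc1, a nucleolar phosphoprotein, stood at 34.7, and Ncl, nucleolin, at 34.2 with 207 against 4.67 fragments. The core box C/D proteins Fbl, Nop56 and Nop58 reached 33.3, 30.2 and 28.8, and the core box H/ACA proteins Nhp2, Dkc1 and Nop10 reached 20.9, 20.5 and 14.9 behind Gar1. Imp3, also of the processome, had the lowest fold of the list, 5.25, and Nop53 and Utp14a were not called.

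Ribosomal protein genes were nearly all called at ordinary to high folds. All 32 small-subunit genes were called, with a median fold of 13.7. Rps25, whose summit was shared with Trappc4, had a fold of 22.1, Rps19 had 122 ChIP fragments against 4.28 input fragments and a fold of 21.6, and Rps4x on chromosome X had 5.16. Of 45 large-subunit genes 42 (93.3%) were called, with a median of 13.5. Rplp0, a protein of the ribosomal stalk, had 156 against 2.85 fragments and a fold of 36.8, 35 bp from its start. Rpl10a stood at 35.6 and Rpl13a at 30.4, Rpl9 was lowest at 6.65, and Rpl24, Rpl37a and Rpl39 were not called. The stalk partners of Rplp0 had far lower values, 15.2 for Rplp1 and 9.87 for Rplp2.

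The machinery that transcribes ribosomal and transfer RNA was less complete. Of 40 genes for RNA polymerases I and III and their factors 31 (77.5%) were called, with a median fold of 13.8. Gtf3c6, a subunit of the tRNA gene factor TFIIIC, had 147 ChIP fragments against 3.49 input fragments and a fold of 30.2, 38 bp upstream of its start. Polr3e, a polymerase III subunit, stood at 27.2, and Polr1b, the second largest subunit of polymerase I, at 24.9. Maf1, the repressor of polymerase III, was the lowest at 6.79. The largest polymerase subunits had modest folds, 12.2 for Polr1a and 8.84 for Polr3a. Crcp, Gtf3c1, Gtf3c3, Taf1a, Taf1b and 4 further genes of the list were not called.

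In translation, 39 of 45 factors (86.7%) were called with a median fold of 12.9. After Eif3b came Eif2s3x, the eIF2γ subunit, with 120 ChIP fragments against 2.64 input fragments and a fold of 29.8, and Eif4a1, the RNA helicase of initiation, with 169 against 4.98 and 26.6. Elongation factor Eef2 was lowest at 6.23, and Eif4e, the cap-binding protein, had 8.56. Members of the eIF3 complex were split: Eif3a, at 21.3, and others were called, whereas Eif3c, Eif3h, Eif3k and Eif3l were not. Eif2b2 and Eif4ebp1 were not called either. Eif4ebp1 had a summit inside it or within 1000 bp of it, but 1086 bp from the start or end used for calling.

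Of 23 genes for aminoacyl-tRNA synthetases and their scaffold proteins, 19 (82.6%) were called, with a median fold of 13.5. Vars, the valine enzyme, had 123 against 3.23 fragments and a fold of 26.7, Tars, the threonine enzyme, 24.9, and the scaffold protein Aimp2 24.5. The summit at Vars was shared with D17H6S56E-5 and that at Aimp2 with Pms2. Aars, the alanine enzyme, was lowest at 4.61. Aimp1, Cars, Qars and Rars were not called, so the scaffold proteins of the same complex stood on both sides.

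Chaperones for the cytosol and proteins of mitochondrial import resembled the ribosomal lists in share. The median fold of the 25 cytosolic chaperones was 12. Hsf1, the heat shock transcription factor, and Bop1, a ribosome assembly factor, shared a summit with 119 ChIP fragments against 3.27 input fragments and a fold of 25.6. The listed genes of the TRiC chaperonin, the ring that folds actin and tubulin, were all called, from 22.9 at Tcp1 (shared with Mrpl18), 22.1 at Cct8 and 21.5 at Cct3 to 9.31 at Cct7. Bag1, a cochaperone, was lowest at 5.53. Of 30 genes for mitochondrial import, chaperones and genome upkeep 28 (93.3%) were called, with a median of 12.5. The chaperonin genes Hspd1 and Hspe1 shared a summit with 126 against 3.25 fragments and a fold of 27.2, Hspa9, the mitochondrial Hsp70, had 24.5 and Timm44 5.42. Polrmt, the mitochondrial RNA polymerase, and Timm8a1 were not called, although Tfam, the mitochondrial genome's packaging factor, was called at 11.8.

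Splicing factors were called at 43 of 46 genes (93.5%), with a median of 12.2. Hnrnpf had 143 ChIP fragments against 3.56 input fragments and a fold of 29.0, Ptbp1, a repressor of exons, 26.4 and Srsf7 24.2, while Sf3a1 was lowest at 6.51. Snrpb, Snrpc and Srsf9 were not called. Prmt5, the methyltransferase of spliceosomal Sm proteins, stood at 13.0 and its partner Wdr77 at 14.4.

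**Figure D5:**
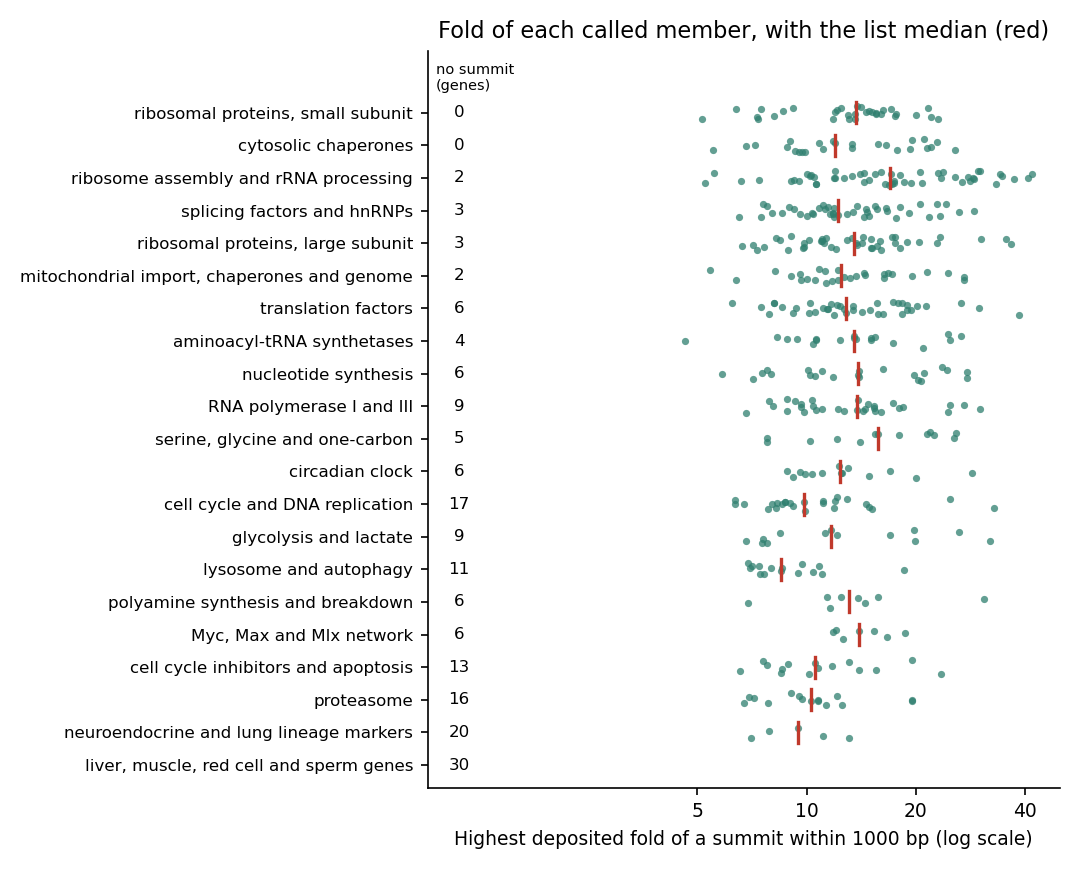
Highest deposited fold (log scale) of a summit within 1000 bp for each called member of the gene lists, with the median of the called members in red. The number of uncalled members, headed as no summit, is at the left. Ribosome assembly genes reach 41.9 with a median of 16.96, whereas lysosome and autophagy genes stay at 18.6 or less with a median of 8.48.

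Metabolic lists were called in part, and fold varied widely among their called members. In nucleotide synthesis 22 of 28 genes (78.6%) were called, with a median fold of 13.9. Paics and Ppat, neighbouring genes of purine synthesis, shared a summit with 139 ChIP fragments against 3.62 input fragments and a fold of 27.8. Cad, which starts pyrimidine synthesis, had 24.4, Ctps, which makes CTP, 23.6 and Impdh1, of guanine nucleotide synthesis, 21.1. Cmpk1 was lowest at 5.86, and Adssl1, Ctps2, Prps1, Prps2 and Rrm2 were among those not called. Of ribonucleotide reductase, therefore, Rrm1 had a summit, at 10.6, and the nearest summit to Rrm2 lay 56453 bp away.

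In serine, glycine and one-carbon metabolism 13 of 18 genes (72.2%) were called with a median of 15.8. Mat2a, which makes S-adenosylmethionine, had 143 against 4.15 fragments and a fold of 25.9. Shmt1, the cytosolic serine hydroxymethyltransferase, had 25.5, its mitochondrial form Shmt2 14.1 and Mthfd2, the mitochondrial folate enzyme, 22.5. Along serine synthesis the folds were 7.76 for Phgdh, 21.95 for Psat1 and 15.8 for Psph, so the first enzyme of the route was the weakest. Aldh1l2, Amt, Dld, Gldc and Mthfs were not called, and of the glycine cleavage system only Gcsh, at 7.78, had a summit among the 4 members listed.

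In polyamine synthesis and breakdown 8 of 14 genes (57.1%) were called with a median of 13.1. Srm, spermidine synthase, led with 132 ChIP fragments against 2.90 input fragments and a fold of 30.8. Odc1, ornithine decarboxylase and a classical c-Myc target, had 15.8, and Amd1, which supplies the aminopropyl groups, 11.6. The enzymes that make hypusine on eIF5A, Dhps and Dohh, had 14.5 and 12.4, and Eif5a itself 18.97. Sat1, of polyamine breakdown, was lowest at 6.91. Amd2, Oaz1, Oaz2, Paox, Smox and Sms were not called.

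Of 22 glycolysis and lactate genes 13 (59.1%) were called, with a median of 11.7. Ldha, lactate dehydrogenase A, had 142 against 3.03 fragments and a fold of 32.1, 16 bp upstream of its start, with a CACGTG in the window printed above. Hk2, a hexokinase, had 26.4, Pkm, pyruvate kinase, 20.0, Pgam1 19.8 and Aldoa, the lowest, 6.80. Another form was uncalled in several cases: Hk1 beside Hk2, Ldhb beside Ldha and Pfkm beside Pfkl at 16.98. Slc16a3, a lactate exporter, was uncalled beside Slc16a1 at 12.2. Elsewhere more than 1 form was called: Pfkp, also a phosphofructokinase, at 8.47, and the enolases Eno1 and Eno3 at 11.7 and 7.61, with Eno2 uncalled. Slc2a1, the glucose transporter, stood at 7.53 and Slc2a3 was not called.

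Within the network of c-Myc's own partners and rivals 7 of 13 genes (53.8%, interval 29.1 to 76.8) had a summit, and none of the 3 Myc genes did. Max, the shared partner, had 77 ChIP fragments against 2.77 input fragments and a fold of 18.7, 229 bp upstream of its start. Mlxip, the partner of Mlx also called MondoA, had 88 against 3.93 fragments and a fold of 16.7. Among the rivals, Mnt had 108 against 5.71 fragments and a fold of 15.3 at its start, Mxd4 13.9, Mxd3 12.6, Mxi1 12.03 and Mga 11.9. Mxd1, Mlx and Mlxipl were not called, with the nearest summit 64236, 4223 and 42234 bp away. For Myc the nearest summit was 47686 bp away, with 157 against 3.56 fragments and a fold of 31.8. That summit lay inside the long noncoding RNA Pvt1, 61 bp from an annotated end of it. Mycl had its nearest summit at 20681 bp and Mycn at 1675935 bp. Mnt had 6 summits, which spanned 7877 bp, against 3 at Mxi1, 2 at Mxd3 and Mga, and 1 at Max, Mlxip and Mxd4.

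Clock genes were called at 14 of 20 (70.0%), with a median fold of 12.4. Nr1d1, the repressor REV-ERBα, had 158 ChIP fragments against 4.15 input fragments and a fold of 28.6, 30 bp past its start, and Nr1d2 had 20.0. Per2 stood at 17.01 and Per1 at 12.4, the output factors Dbp, Hlf and Tef at 14.9, 12.5 and 12.3, and Cry2 was lowest at 8.85. Clock itself had 9.57, while its partner Arntl was not called, nor were Arntl2, Npas2, Per3 and Rora.

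Cell cycle and DNA replication genes had a lower share, 25 of 42 (59.5%), and a median fold of 9.84, under the 10.3 of all called genes. Mcm7, a subunit of the replicative helicase, shared a summit with Ap4m1 that had 177 ChIP fragments against 3.995 input fragments and a fold of 32.9. Ccne2, cyclin E2, had 24.8, Cdt1, the licensing factor, 15.1, and Cdk4, a kinase of the early cycle, 14.8. Pcna, the sliding clamp, was lowest at 6.37, the same as for Ccna2 and near Cdk1 at 6.73. Within the helicase, Mcm6 had 11.9, Mcm3 9.84 and Mcm4 8.71, and Mcm2 and Mcm5 were not called. Ccnb2, Ccnd2, Cdk2, E2f1, Mcm10, Skp2 and 9 more were also not called. Of the uncalled genes, Ccnd3 had a summit inside it or within 1000 bp of it, but 2671 bp from the start or end used.

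Of 28 cell cycle inhibitors and apoptosis genes 15 (53.6%) were called. The tumour suppressor gene Trp53 had a summit 13 bp from its start, shared with Wrap53 on the other strand, with 133 against 4.28 fragments and a fold of 23.6. Cdkn2a, which encodes p16 and p19Arf, had 80 against 2.73 fragments and a fold of 19.6, 110 bp upstream of a start. Gadd45g had 15.5. The proapoptotic genes Bax, Bad, Bbc3 and Bcl2l11 had 13.96, 13.1, 11.8 and 10.2, with Bak1, Bid and Apaf1 uncalled. The antiapoptotic genes Mcl1, Bcl2l1 and Bcl2 had 8.48, 7.58 and 6.55. Bcl2 had the lowest of these folds with 92 ChIP fragments against a high input of 12.8, whereas Bax had 63 against 3.19. Cdkn1a, Cdkn2b, Cdkn2c, Mdm2, Rb1, Pmaip1 and 4 more were also not called. Cdkn1a and Cdkn2d had a summit inside them or within 1000 bp of them, but 1555 and 3265 bp from the start or end used.

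Of 31 proteasome genes 15 (48.4%) were called, with a median fold of 10.3, against the same 10.3 over all called coding genes. The 2 highest, Psmc5 at 19.6 and Psmc2 at 19.5, shared their summits with Ftsj3, a ribosomal RNA processing gene, and with Dnajc2, a ribosome-bound chaperone. Psmb3 followed at 12.6, and Psma2 was lowest at 6.73. Of 26 lysosome and autophagy genes 15 (57.7%) were called with a median of 8.48, the lowest of the 20 lists with a called member. Map1lc3b, the autophagosome protein LC3B, had 90 against 3.49 fragments and a fold of 18.6, Ctsd, a cathepsin, 11.04 and Atp6v1a, of the proton pump, 10.8. Of the factors that activate lysosomal genes, Mitf was called at 6.91, the lowest of the list, and Tfeb and Tfe3 were not.

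The neuroendocrine and lung lineage list was near the background, with 5 of 25 genes (20.0%, interval 8.86 to 39.1). Nfib, a factor often amplified in small cell lung cancer models, had 56 ChIP fragments against 2.95 input fragments and a fold of 13.1. Sox2 had 40 against 2.29 fragments and 11.1, Yap1 36 and 9.45, Ncam1 35 and 7.89, and Rest, a repressor of neuronal genes, 25 and 7.02. Neurod1, Insm1, Chga, Syp and Sftpc were not called, the nearest summits to them lying 32463 bp or more away, and Nkx2-1 had a summit 2003 bp from its start. Of the 30 liver, muscle, red cell and sperm genes 0 had a summit, where a floor of 3 counts allows a share of up to 10.0% and the Wilson upper limit is 11.4%. An uncalled gene had no listed summit in the distance used, and the weakest summits of the list held 24 fragments. Such a gene is not shown to be free of c-Myc. Some uncalled genes, such as Ccnd3, Cdkn1a and Eif4ebp1, had a listed summit elsewhere in the gene or within 1000 bp of it.

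Several genes carried more than 1 summit. Counting summits inside a coding gene or within 1000 bp of it, 6307 genes had at least 1, 1368 (6.25% of coding genes) had 2 or more, 265 had 3 or more and 24 had 5 or more. Gene length was larger at each count up to 4: the median was 22431 bp for genes with 1 summit, 26323 bp with 2, 34725 bp with 3 and 78626 bp with 4, against 17170 bp over all coding genes, but 10689 bp for the 16 genes with 5. The median highest fold was 9.94, 11.6, 12.5, 14.02 and 20.9 for genes with 1 to 5 summits and 15.4 for the 8 with 6 or more. Gse1, a subunit of a chromatin repressor complex, had the most, 10 summits over 352883 bp, with a highest fold of 12.1. Nfix, a nuclear factor I gene of 96527 bp, had 8, which included none within 1000 bp of the start used. Bahcc1, a chromatin reader, and Prkag2, a subunit of the energy sensor AMPK, had 7 each, with highest folds of 26.7 and 11.98. Zfp516 and Bcl11a, both zinc-finger genes, had 6 each.

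Some shorter genes also had many summits. Mnt, 14920 bp long, carried 6 summits with a median fold of 16.3 and a highest of 22.9. Klf16, the gene with the highest fold of the list, carried 5 within 1531 bp, of which the weakest had a fold of 6.99. Kdm6b, a histone H3 lysine 27 demethylase of 21860 bp, carried 5 with folds from 10.3 to 26.9. Zfp36l2, an RNA-binding protein gene of 4024 bp, carried 5, with a highest fold of 25.2. Over the whole list, 702 summits (8.97%) had another within 500 bp, 1577 (20.1%) within 1000 bp and 2859 (36.5%) within 10000 bp. Whether the caller divided broader regions there was not tested.

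Longer peaks tended to have higher folds (Spearman's rho 0.60 over the 7830 peaks), but the longest peaks did not have the highest folds. The longest, 1875 bp, had its summit 1421 bp outside Ptma, prothymosin α, a classical c-Myc target, and had a fold of 16.9. It was followed by peaks at Ptbp1 (1841 bp), Eif5a (1660 bp), Hnrnpf (1583 bp), Abhd11 (1565 bp), Cct7 (1557 bp), Cnbp (1555 bp), Mat2a (1524 bp), Ncl (1510 bp) and Uck2 (1486 bp). Fold over these 10 ran from 9.31 at Cct7 to 34.2 at Ncl.

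Away from coding starts, several summits were as strong as the leading genes. The strongest more than 1000 bp from any end of a coding gene was at Snhg15, a noncoding host gene of a small nucleolar RNA, with 220 ChIP fragments against 3.49 input fragments and a fold of 45.01. A peak on chromosome 11 at 6710322 to 6711042, 33120 bp from the nearest coding gene, Ramp3, had 174 against 2.62 fragments and a fold of 43.4. On chromosome 5 at 142367293 to 142368000, 487 bp from the long noncoding RNA Gm31068, a peak had 246 against 5.02 fragments, the highest ChIP count outside the ribosomal repeat, and a fold of 38.4. Inside Nfic, a nuclear factor I gene, 156 against 2.84 fragments gave 36.9, and 4258 bp from Rbp7, a retinol-binding protein gene, 150 against 3.03 gave 33.9. Inside Pemt, of phosphatidylcholine synthesis, a summit with 235 against 4.37 fragments had a fold of 40.8. Unlike those above, the Pemt summit lay within 1000 bp of an annotated end of a coding gene, though of no start used here. Near the Mir17 cluster of microRNAs, which c-Myc is known to activate, a summit 1195 bp from Mir17 had 171 against 4.28 fragments and a fold of 30.2.

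Noncoding genes were called less often, 1051 of 28056 (3.75%). Among them were 783 of 12727 long noncoding RNAs (6.15%), 67 of 1228 microRNA genes (5.46%), 51 of 1340 small nucleolar RNA genes (3.81%) and 66 of 408 tRNA genes (16.2%). Peaks that lay near no coding start reached 45 of the called tRNA genes, 221 of the long noncoding RNAs, 23 of the microRNA genes and 20 of the small nucleolar RNA genes. A summit near a noncoding gene and near no coding start was found for 318 peaks, and 2073 peaks (26.5%) lay near neither. Host genes of small nucleolar RNAs stood out by count: of the 19 genes made up of the Snhg genes and Gas5, 15 were called. Folds ran from 45.01 at Snhg15, 23.7 at Snhg17 and 21.2 at Snhg5 to 5.54 at Snhg3, and Snhg7os, Snhg11, Snhg14 and Snhg18 were not called. The summits at Snhg6, Snhg9, Snhg10 and Gas5 also lay within 1000 bp of a coding start, so they cannot be assigned to the host gene alone. RNA subunits of enzymes were called too, with folds of 15.3 at Rmrp, 11.9 at Rpph1 and 9.44 at Terc, the telomerase RNA. The summits at Rmrp and Rpph1 also lay within 1000 bp of a coding start, and the other RNase P RNA genes, Rprl1, Rprl2 and Rprl3, were not called. Jpx, a noncoding regulator of X inactivation, had a fold of 22.8.

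Called genes were unevenly spread over chromosomes. Chromosome 11 had the most peaks, 827, and the largest share of called coding genes, 573 of 1609 (35.6%, interval 33.3 to 38.0). Chromosome 5 followed with 30.9%, and the other autosomes lay between 19.9% and 29.3%. On chromosome X 60 of 966 genes (6.21%, interval 4.86 to 7.91) were called, and its 84 peaks had a median fold of 9.48, against 9.59 over the whole list. Chromosome Y had 0 peaks over its 256 genes. Copy number, gene content and mappability of the chromosomes were not tested.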

How the data were processed

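c-Myc ChIP and input DNA of PB115 were sequenced as 1 library each. Bowtie, SAMtools, MACS2 and mouse build mm10 are listed in the submitters' processing notes, without versions for Bowtie or SAMtools. The authors called peaks, per the file headers, with MACS2 2.1.0.20140616 at a p-value cutoff of 1e-10, kept at most 1 tag per position, scaled the larger library to the smaller and took the local background over 1000 and 10000 bp. Tags were 50 bases and fragments were modelled at 153 bp.

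The deposited pileup is a signal, the coverage of the ChIP at the summit scaled to the input's depth. Multiplied by ChIP tags over input tags it gave whole fragments, within 0.02, at 100% of peaks. As deposited, fold is a ratio of pileup to local background after 1 is added to each. Background was recovered as (pileup + 1)/fold − 1, and a Poisson test on it gave the deposited −log10 p-value within 0.01 at 99.9% of peaks. The deposited −log10 q-value was not used. Such values are the authors' own and describe, rank or filter peaks within this list only.

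Positions, gene types and promoters came from RefSeq tables of GRCm38.p6, the assembly of build mm10. A gene was called when a summit lay within 1000 bp of its start, or of either end for the 4392 coding genes whose start was not given, and took the highest fold there. Shares have Wilson 95% intervals. Python 3.11.15, pandas 2.3.3, NumPy 2.4.6 and SciPy 1.17.1 were used, and the scripts were tested on simulated data.

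The members and the gene lists were chosen with earlier results of these data known. Named genes were the 12 of highest fold, the 10 peaks of highest coverage and the 10 longest, the 10 genes with most summits, the 3 strongest and the weakest member of each list with up to 6 uncalled ones, the Myc, Max and Mlx network, the 5 strongest peaks far from coding genes, and the 5 extremes of background, fold and p. Other names were chosen after their values were seen. A few genes that the rule names are not reported here. The input entered through the peak calling alone. The other lines were not analysed here beyond their peak counts.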

Additional observations from a re-analysis of the deposited data

How the results depend on the processing

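Shares and counts of summits, genes, lists and promoters were recomputed with a deposited −log10 p of at least 20, a fold of at least 10, distances of 500 and 5000 bp, the middle of the peak for its summit, and without chromosomes X and Y, and medians over peaks with the first and last of these; alternatives on either gene end, repeat peaks and summits inside promoters were chosen after seeing the data. The share of summits near a start was 74.5% at the fold limit, 60.5% at 500 bp, 77.7% at 5000 bp and 63.4% with either end of every gene, against 69.5%. At the fold limit 2876 coding genes were called, against 5375. Genes with several summits numbered 745 at the p limit and 323 at the fold limit, against 1368. CACGTG was in 16.3% of promoters at the p limit, 18.2% at the fold limit, 13.8% at 5000 bp and 19.7% with the summit inside, against 14.7%. At the p limit the median length was 312 bp, the median ChIP fragments 57 and the median fold 11.04. Background with no count added had a median of 2.15 times the genome-wide level, against 1.59. Their causes were not tested. Ranked by ChIP fragments, 6 of the 12 leading genes stayed. The 19 lists above the share of all coding genes stayed above it, and the other two below, under the 6 alternatives run on lists, but at the fold limit 14 of the 21 shares left their interval. Lysosome and autophagy genes then stood at 15.4%, near the 13.1% of all coding genes, against 57.7%, cell cycle genes at 26.2%, against 59.5%, proteasome genes at 25.8%, against 48.4%, inhibitors and apoptosis genes at 32.1%, against 53.6%, glycolysis genes at 36.4%, against 59.1%, cytosolic chaperones at 64%, against 100%, and lineage markers at 8%, against 20.0%. No paired analysis was possible because each group had 1 library. The listed summits held 24 fragments or more; the caller's p cutoff against the local background decided which sites were listed.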
